A study of Mus musculus with 6 samples.

Results

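The lymphatic endothelial genes described here are 8 genes taken by name from a table of 23420 gene symbols: Prox1, Mmrn1, Pdpn and Reln, which mark lymphatic endothelium, the receptor gene Flt4, the growth factor genes Vegfc and Vegfd, and Ccbe1, whose product helps to activate VEGF-C. Vegfd is counted in the table under its older symbol Figf, so the 9 names of the rule gave 8 genes. RNA of whole aortic roots, the first part of the aorta with the aortic valve and adjoining heart muscle, was sequenced in bulk from C57BL6/J mice. In the labels 3 roots are wild type for Sost (Sost+/+) and 3 carry a knockout of both copies (Sost-/-), and both groups shared an age of 12 months and a high-cholesterol diet over the last 8 months, begun at 4 months. The labels name no Cre driver or transgene. They do not tie each root to its own animal, and a p-value here sets a group difference against the spread of these roots only. Replicate numbers follow accession order and pair nothing.

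Lymphatic vessels drain fluid, cells and lipoproteins from tissues, and in the heart and great vessels they run in the outer layers. Their endothelium is specified and kept by the transcription factor PROX1 and grows in response to VEGF-C and VEGF-D, which signal through VEGF receptor 3, the product of Flt4. VEGF-C is secreted as a precursor that the protease ADAMTS3 cleaves with the help of CCBE1. Several of these genes are also used outside lymphatic endothelium: Prox1 in heart muscle cells, Pdpn in mesothelium and fibroblasts, and the growth factors in mural cells and fibroblasts.

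The libraries held 37023586 to 48172863 counts, and the 8 genes were each covered by 331 to 2519 counts in every library, so all passed the filter on low counts. Sost, the gene named by the genotype, was not lower in the libraries labelled Sost-/- (2284, 1063 and 513 counts) than in those labelled Sost+/+ (354, 621 and 274 counts), and its edgeR adjusted p was 0.124 at a log2 fold change of 1.56 (SE 0.48). The labels do not say which part of Sost the allele removes or whether a transcript remains, so counts over the whole gene neither check nor contradict the genotype. Higher and lower below refer to the libraries labelled Sost-/-. Smooth muscle markers were higher and cardiomyocyte markers lower in the libraries labelled Sost-/-, with values given below. In bulk tissue, fewer cells of a type and less RNA per cell cannot be told apart.

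Sequences upstream of the start site are shown for 4 of the genes: Mmrn1 and Reln, which varied together across the libraries, and Vegfc and Vegfd, the paired ligands of one receptor. They are the 250 bases before the RefSeq start (build GRCm38.p6), written along the strand of the gene. Capitals mark matches on either strand to 6 motifs. The letters searched were ACAAAG for SOX factors, with TGTTTAC for forkhead factors. For the zinc finger factors of the GATA family they were AGATAA, and for TCF and LEF factors they were CTTTGAT. ETS factors were represented by CCGGAAGT, and the core promoter box named after its first letters by TATAAA.
Mmrn1, chr6:60944067-60944316, plus strand: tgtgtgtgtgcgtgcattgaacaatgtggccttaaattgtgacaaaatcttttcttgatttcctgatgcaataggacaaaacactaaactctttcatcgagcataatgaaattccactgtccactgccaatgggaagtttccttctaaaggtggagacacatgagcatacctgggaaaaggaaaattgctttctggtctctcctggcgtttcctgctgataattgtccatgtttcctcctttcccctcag
Reln, chr5:22344706-22344955, minus strand: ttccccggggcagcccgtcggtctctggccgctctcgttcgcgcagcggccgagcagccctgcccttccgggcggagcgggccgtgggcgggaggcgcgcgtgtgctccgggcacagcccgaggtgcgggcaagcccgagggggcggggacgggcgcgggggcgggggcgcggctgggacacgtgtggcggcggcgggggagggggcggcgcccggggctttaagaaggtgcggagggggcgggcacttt
Vegfc, chr8:54077282-54077531, plus strand: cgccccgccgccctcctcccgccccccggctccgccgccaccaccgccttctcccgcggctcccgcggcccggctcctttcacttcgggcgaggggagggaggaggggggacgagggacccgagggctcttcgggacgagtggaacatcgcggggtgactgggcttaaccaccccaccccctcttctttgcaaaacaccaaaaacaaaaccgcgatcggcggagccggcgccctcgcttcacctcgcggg
Vegfd, chrX:164373272-164373521, plus strand: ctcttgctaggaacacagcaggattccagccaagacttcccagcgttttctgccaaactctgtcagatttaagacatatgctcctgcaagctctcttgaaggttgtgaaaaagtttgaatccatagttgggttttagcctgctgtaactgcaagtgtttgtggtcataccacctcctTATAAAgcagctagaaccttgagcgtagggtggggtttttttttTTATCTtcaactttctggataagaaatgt
The windows of Mmrn1 and Reln differed in base composition, with 42.4% and 80.0% G or C against a median of 52.4% over 32851 such windows. Neither held a match to any of the 6 motifs. The ligand windows differed as well, with 71.6% G or C for Vegfc and 42.4% for Vegfd. That of Vegfd held a TATA match 73 bases before the start and a GATA match, on the other strand, at 29 bases, while Vegfc held none. Of all windows, 12.4% held the TATA letters, 9.99% the GATA letters, 16.5% the SOX, 3.17% the FOX, 3.21% the TCF/LEF and 2.88% the ETS letters. No matches in the printed windows overlapped. The RefSeq start of Mmrn1 lies 19341 bases inside the GENCODE gene, so its window lies within that gene. That of Vegfd lies 144 bases inside its GENCODE gene, so its TATA and GATA matches lie within the gene as well.

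All 8 genes had a positive log2 fold change in the libraries labelled Sost-/-, and 1 of them, Mmrn1, rose. By edgeR's quasi-likelihood test with Benjamini-Hochberg adjustment over 15096 genes, 1 of 8 passed at 0.05, where 2.55% of all tested genes passed (2.18% higher and 0.371% lower). For Mmrn1, Reln, Ccbe1 and Vegfd the groups did not overlap, all higher, while 25.4% of tested genes did not overlap (14.3% higher and 11.1% lower). The median log2 fold change of the 8 was 0.40, from 0.15 to 0.69, beside a median of 0.01 over all tested genes, of which 51.3% were positive. DESeq2, a second test on the same counts, called these 4 genes higher, where it called 7.64% of genes (4.96% higher and 2.68% lower).

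**Figure D1:**
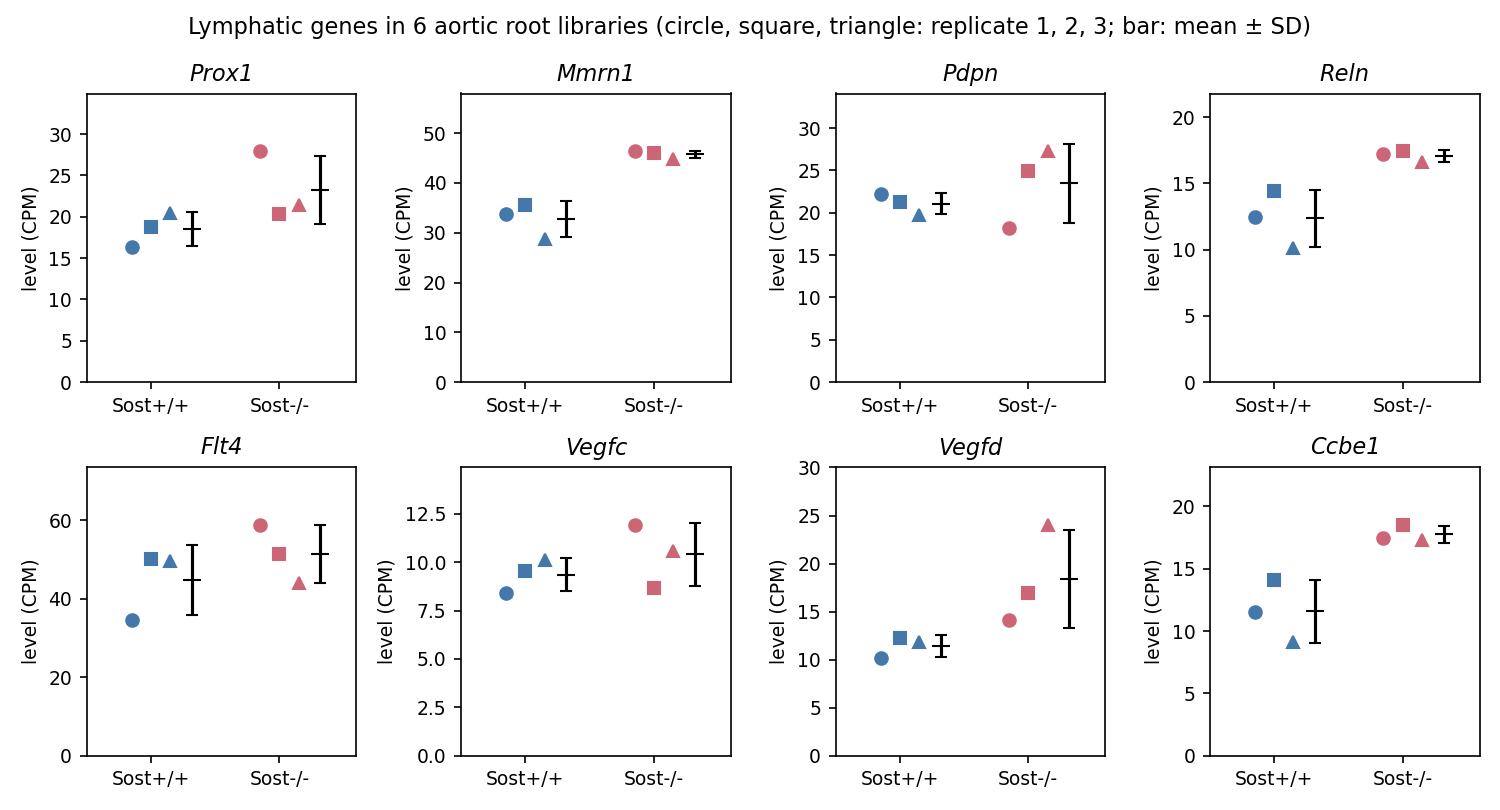
Level of each gene in CPM (TMM-scaled) in the 3 libraries labelled Sost+/+ (blue) and the 3 labelled Sost-/- (red), with mean ± SD as black bars and the axis starting at 0. Mmrn1, Reln, Ccbe1 and Vegfd do not overlap between the groups, and the other 4 genes do.

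Prox1, the transcription factor gene of lymphatic identity, spans chr1:190118035-190170714, minus strand (GENCODE M21, build GRCm38, the assembly of mm10, also for the positions below). Its level, in CPM (read counts scaled to a common library size), was 16.4, 18.7 and 20.5 CPM in Sost+/+ replicates 1 to 3 and 27.9, 20.4 and 21.4 CPM in Sost-/- replicates 1 to 3. Sost-/- replicate 1 stood above the rest, and Sost-/- replicate 2 lay just under the highest Sost+/+ library, so the groups overlapped. The log2 fold change was 0.33 (SE 0.14, 95% interval 0.01 to 0.64) and did not pass (edgeR adjusted p = 0.230). It was 0.17 without Sost-/- replicate 1. The antisense gene Prox1os shares 133 exonic bases with Prox1, and the strand setting of the counting is not given in the sources used here.

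Mmrn1 encodes multimerin 1, a matrix glycoprotein of endothelium and platelets, and spans chr6:60924976-60989378, plus strand. Its level was 33.7, 35.7 and 28.7 CPM in the Sost+/+ libraries and 46.4, 45.9 and 44.8 CPM in the Sost-/- libraries. Every Sost-/- library was above every Sost+/+ library. Mean levels were 32.7 ± 3.61 and 45.7 ± 0.791 CPM (SD, n = 3). Mmrn1 was 1.40-fold higher, with a log2 fold change of 0.48 (SE 0.10, edgeR adjusted p = 0.0397). The value stayed between 0.39 and 0.55 when any 1 library was left out, but the call was lost in 5 of these 6 fits, with adjusted p of 0.139 without Sost+/+ replicate 1, 0.0722 without Sost+/+ replicate 3, and 0.0740, 0.0907 and 0.150 without Sost-/- replicates 1, 2 and 3.

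Reln encodes reelin, a large secreted glycoprotein that collecting lymphatic vessels use to signal to their smooth muscle, and spans chr5:21884454-22344702, minus strand. Its level was 12.5, 14.5 and 10.1 CPM in the Sost+/+ libraries and 17.2, 17.4 and 16.6 CPM in the Sost-/- libraries. The groups did not overlap. The log2 fold change of 0.47 (SE 0.13, 1.38-fold) missed the threshold in edgeR (adjusted p = 0.106) and passed in DESeq2 (adjusted p = 0.0482).

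Pdpn encodes podoplanin, a membrane glycoprotein that binds the platelet receptor CLEC-2, and spans chr4:143267431-143299564, minus strand. Its level was 22.2, 21.2 and 19.8 CPM in the Sost+/+ libraries, and 18.3, 24.9 and 27.3 CPM in the Sost-/- libraries. The Sost-/- group held both the lowest and the highest value of the 6. The log2 fold change of 0.15 (SE 0.14, 95% interval -0.17 to 0.48) did not pass (edgeR adjusted p = 0.578). Summed markers of mesothelium, a tissue that also makes podoplanin, were 32.6, 44.1 and 58.2 CPM in the Sost+/+ libraries. In the Sost-/- libraries they were 35.6, 34.3 and 156 CPM. The part of mesothelium in the Pdpn levels was not tested. The log2 fold change of Pdpn was 0.03 without Sost-/- replicate 3, the library with the highest Pdpn. It was 0.31 without Sost-/- replicate 1, the library with the lowest Pdpn.

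Flt4, the receptor gene, spans chr11:49609263-49652739, plus strand. Its level was 34.5, 50.1 and 49.7 CPM in the Sost+/+ libraries and 58.9, 51.5 and 44.1 CPM in the Sost-/- libraries. Sost+/+ replicate 1 was low, and Sost-/- replicate 3 lay below the other Sost+/+ libraries. The log2 fold change was 0.20 (SE 0.16, 95% interval -0.15 to 0.56), with an edgeR adjusted p of 0.5003, and it was 0.03 without Sost+/+ replicate 1 and 0.09 without Sost-/- replicate 1.

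Vegfc and Vegfd encode the ligands of that receptor, at chr8:54077606-54187096 and chrX:164373378-164402650, both plus strand. Vegfc was at 8.43, 9.54 and 10.1 CPM in the Sost+/+ libraries and at 11.9, 8.68 and 10.6 CPM in the Sost-/- libraries. These values overlapped, and the log2 fold change of 0.15 (SE 0.15, 95% interval -0.17 to 0.48) did not pass (edgeR adjusted p = 0.586). It was 0.04 without Sost-/- replicate 1, 0.07 without Sost+/+ replicate 1 and 0.27 without Sost-/- replicate 2. Vegfd was at 10.1, 12.3 and 11.8 CPM in the Sost+/+ libraries and at 14.1, 17.0 and 24.0 CPM in the Sost-/- libraries. All 3 Sost-/- libraries were above the Sost+/+ libraries, with replicate 3 the highest. Its log2 fold change, 0.69 (SE 0.19, 1.61-fold), was the largest of the 8 and missed the threshold in edgeR (adjusted p = 0.0939), while DESeq2 called it (adjusted p = 0.0130). Without Sost-/- replicate 3 it was 0.44 (edgeR adjusted p = 0.312), and without Sost-/- replicate 1 it was 0.84 and passed (adjusted p = 0.0454). Mesothelium markers were high in Sost-/- replicate 3, and their part in the Vegfd levels was not tested.

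Ccbe1, the gene of the secreted cofactor of VEGF-C cleavage, spans chr18:66045302-66302741, minus strand. Its level was 11.5, 14.1 and 9.09 CPM in the Sost+/+ libraries and 17.5, 18.5 and 17.3 CPM in the Sost-/- libraries. The groups did not overlap, and the 3 Sost-/- libraries lay close together. The log2 fold change of 0.62 (SE 0.15, 1.53-fold) had an edgeR adjusted p of 0.0731 and passed in DESeq2 (adjusted p = 0.00961), as it did in edgeR without Sost+/+ replicate 2 (0.78, adjusted p = 0.0355). Antisense genes share 246 exonic bases with Reln and 320 with Ccbe1, and their reads may not be told apart.

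**Figure D2:**
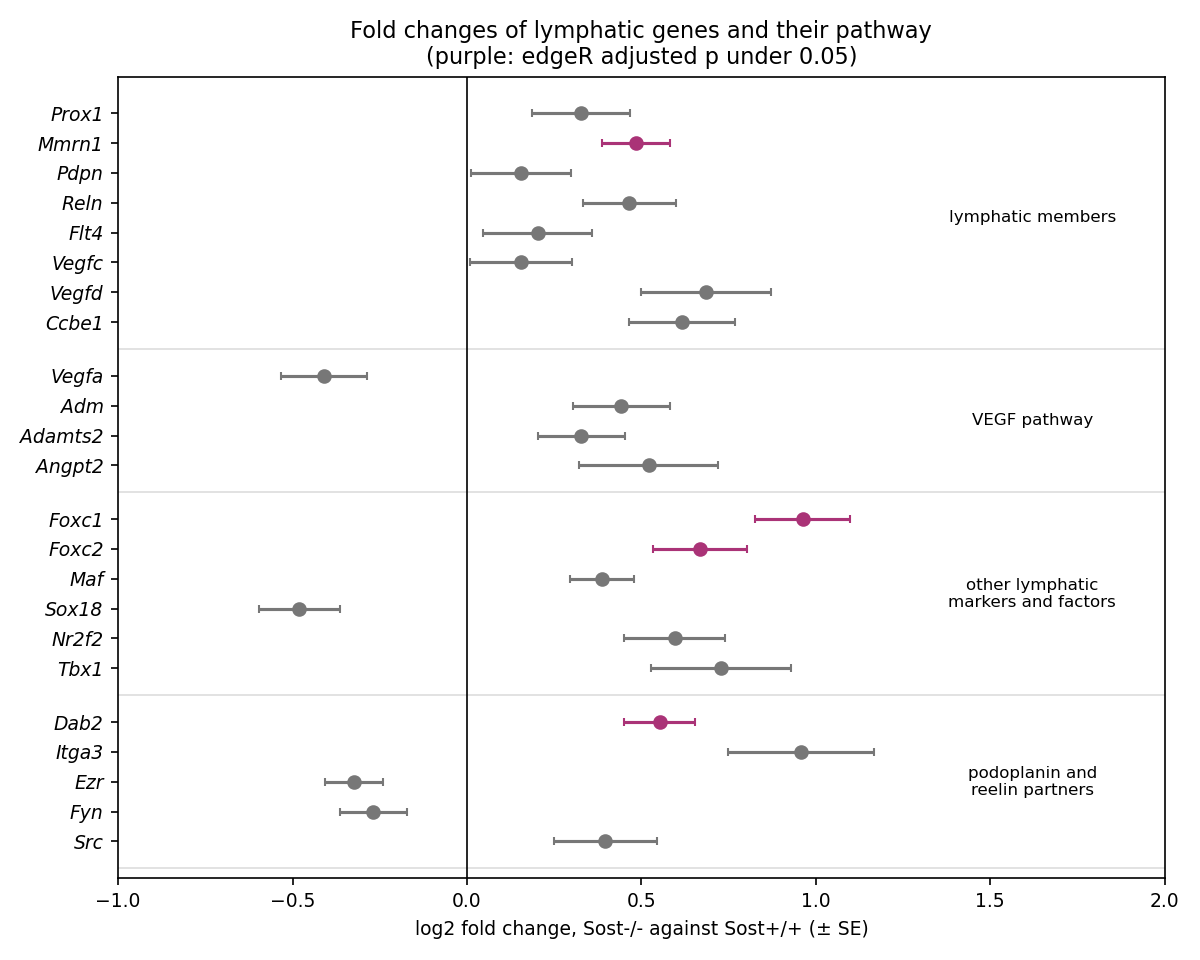
Log2 fold changes (± SE) of the 8 genes and of the genes named from 3 further lists, Sost-/- against Sost+/+, with genes of edgeR adjusted p under 0.05 in purple. Of the 8, Mmrn1 at 0.48 passed, and from the other lists Foxc1, Foxc2 and Dab2 passed, all higher.

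Mmrn1, Reln and Ccbe1 kept nearly constant proportions to each other in the 6 libraries. A ratio of counts within a library needs no scaling between libraries. The count ratio of Reln to Mmrn1 was 0.371, 0.405 and 0.353 in the Sost+/+ libraries and 0.371, 0.379 and 0.370 in the Sost-/- libraries. The difference between the groups was within their spread (log2 difference -0.01, exact two-sided permutation p = 0.9). The ratio of Ccbe1 to Reln was 0.923, 0.975 and 0.897 against 1.01, 1.06 and 1.04, without overlap but with a small log2 difference of 0.16. The 3 genes also shared an order in the Sost+/+ libraries, where replicate 2 was the highest and replicate 3 the lowest. Summed smooth muscle markers had the same order there, at 1590, 2797 and 1420 CPM. In the Sost-/- libraries that sum was 5261, 4211 and 6409 CPM. It was highest in replicate 3, where each of the 3 genes was at its lowest in that group. Within that group the 3 genes differed by about as much as counting alone gives, so their order there is not resolved. The part of smooth muscle in this pattern was not tested. The 3 genes were set together after their values were seen. Their spread in the Sost+/+ libraries was 11.1%, 17.5% and 21.6% of the mean (coefficient of variation, for Mmrn1, Reln and Ccbe1). In the Sost-/- libraries it was 1.73%, 2.51% and 3.80%, beside 2.29%, 3.75% and 3.67% from counting alone at the mean counts of those libraries.

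Over all 28 pairs of the 8 genes, the highest count ratio in a library was between 1.15 and 2.37 times the lowest. The 3 pairs among Mmrn1, Reln and Ccbe1 were at 1.15 (Mmrn1 to Reln), 1.19 (Reln to Ccbe1) and 1.27 (Mmrn1 to Ccbe1). The pairs among Prox1, Vegfc and Flt4 were also among the 6 steadiest, at 1.21 for Prox1 to Vegfc, 1.29 for Prox1 to Flt4 and 1.45 for Flt4 to Vegfc. Every pair outside these 2 sets was at 1.61 or more. The ratio of Mmrn1 to Prox1 ranged from 1.40 to 2.26 and that of Mmrn1 to Flt4 from 0.576 to 1.02, and both differences between the groups were within the spread (exact two-sided permutation p = 0.5 and 0.3). Vegfd to Vegfc was 1.20, 1.29 and 1.17 in the Sost+/+ libraries and 1.18, 1.95 and 2.27 in the Sost-/- libraries. Sost-/- replicate 1 thus lay among the Sost+/+ libraries (log2 difference 0.51, exact two-sided permutation p = 0.3).

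Ratios to 4 genes outside the 8 (Pecam1, Kdr, Vegfa and Lyve1) lay higher in every library labelled Sost-/-, without passing a test. Counts of Mmrn1 per count of Pecam1, which encodes an adhesion molecule of all endothelium, were 0.144, 0.140 and 0.130 against 0.175, 0.253 and 0.236. Flt4 per Kdr, the gene of the main receptor for VEGF-A, was 0.198, 0.234 and 0.246 against 0.277, 0.354 and 0.251. Neither ratio overlapped between the groups, with log2 differences of 0.67 and 0.37. Vegfc per Vegfa was 0.0195, 0.0231 and 0.0229 against 0.0322, 0.0266 and 0.0391 (log2 difference 0.57), with the fold changes of Vegfa at -0.41 and of Vegfc at 0.15 on the log2 scale. Mmrn1 per Lyve1, the gene of the hyaluronan receptor shared by lymphatic endothelium and tissue macrophages, was 0.421, 0.452 and 0.406 against 0.673, 0.498 and 0.489 (0.36). For these 4 ratios and for that of Ccbe1 to Reln the exact two-sided permutation p was 0.1, the smallest that 3 against 3 libraries allow, and 0.18 after Benjamini-Hochberg adjustment over the 9 ratios, which were chosen after the values were seen.

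Levels between genes were compared as CPM per kilobase of merged exons. In the Sost+/+ libraries Pdpn was highest at 11.6 ± 0.666 (SD, n = 3, as for the others), followed by Mmrn1 at 5.57 ± 0.615, Flt4 at 5.44 ± 1.08 and Vegfd at 4.74 ± 0.470. The libraries' ranges of Mmrn1, Flt4 and Vegfd overlapped, so their order is not beyond the spread. Vegfc followed at 3.82 ± 0.347, then Prox1 at 2.21 ± 0.244, Ccbe1 at 1.07 ± 0.231 and Reln, the gene with the longest merged exons, at 0.520 ± 0.0911, each with a range apart from its neighbours. In the Sost-/- libraries the order was the same except that Vegfd, at 7.62 ± 2.13, stood between Mmrn1 at 7.79 ± 0.135 and Flt4 at 6.25 ± 0.894. Its range of 5.85 to 9.98 overlapped both.

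Among the other genes of the VEGF pathway, none passed. Of 28 ligands, receptors and processing genes, 0 passed in edgeR and 0 in limma-voom. DESeq2 called 1, Vegfa, lower, where it called 7.64% of genes. An unadjusted edgeR p under 0.05 was found for 5 of the 28, where 20.2% of all tested genes had one. The median log2 fold change of the 28 was 0.05. Vegfa, the gene of the main growth factor of blood vessels, was at 433, 414 and 441 CPM in the Sost+/+ libraries and 371, 326 and 271 CPM in the Sost-/- libraries. These groups did not overlap, with Vegfa lower while Vegfc and Vegfd were not (log2 fold change -0.41, SE 0.12, edgeR adjusted p = 0.119). Adm, the gene of adrenomedullin, a peptide that acts on lymphatic growth, had a log2 fold change of 0.44 (SE 0.14). The collagen propeptidase gene Adamts2 was at 0.33 (SE 0.13) and the angiopoietin gene Angpt2, needed for lymphatic remodelling, at 0.52 (SE 0.20). Adamts3, the protease that works with CCBE1, was at 6.09 and 6.98 CPM in the means of the 2 groups (log2 fold change 0.20, edgeR adjusted p = 0.553).

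Among other lymphatic markers and transcription factors, the forkhead genes Foxc1 and Foxc2 rose. FOXC2 directs the formation of lymphatic valves, and both factors are also used in valve and vessel wall cells. Of 39 listed genes 37 were tested, 2 rose and 0 fell (5.41%, beside 2.55% of all tested genes). The median log2 fold change of the list was 0.15. Foxc1 was at 11.6, 16.2 and 14.9 CPM in the Sost+/+ libraries and 27.5, 25.2 and 30.3 CPM in the Sost-/- libraries (log2 fold change 0.96, SE 0.14, edgeR adjusted p = 0.0151). Foxc2 was at 7.31, 8.55 and 7.96 CPM against 14.5, 11.2 and 12.1 CPM (0.67, SE 0.13, edgeR adjusted p = 0.0397). Neither overlapped between groups, where 14.3% of all tested genes were higher without overlap. The count of this list's genes that passed was 0 without Sost+/+ replicate 1 or without Sost-/- replicate 3. It was 1 without any 1 of the other libraries. DESeq2 called 7 of the list higher and 1 lower, where it called 4.96% of genes higher and 2.68% lower.

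The 4 genes of that list next by p all encode transcription factors, and none passed in edgeR. Nr2f2, which encodes COUP-TFII, a partner of PROX1, had a log2 fold change of 0.60 (SE 0.14, adjusted p = 0.0709), Maf of 0.39 (SE 0.09, adjusted p = 0.0661) and Tbx1 of 0.73 (SE 0.20, adjusted p = 0.0967). Sox18, which switches on Prox1 in the embryo, was at 47.0, 56.8 and 62.8 CPM in the Sost+/+ libraries and 43.0, 38.5 and 37.9 CPM in the Sost-/- libraries. It was lower without overlap (-0.48, SE 0.12, adjusted p = 0.0688), and DESeq2 called it lower and the other 3 higher. Lyve1 was at 76.5 and 84.2 CPM in the means of the groups, with a log2 fold change of 0.14 (edgeR adjusted p = 0.557). Ccl21a, the chemokine gene of lymphatic endothelium, had 0 counts in every library, as had its near-identical copies Ccl21b and Ccl21c, among which the counting may have split or dropped reads.

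Of 23 partners of podoplanin and reelin, 1 rose and 0 fell (4.35%, beside 2.55% of all tested genes). The median log2 fold change of the partners was -0.11. The member that rose was Dab2, the gene of an endocytic adaptor related to the reelin adaptor DAB1, from 60.2, 73.0 and 67.0 CPM to 92.6, 94.3 and 107 CPM (log2 fold change 0.55, SE 0.10, edgeR adjusted p = 0.0288). It was not called without Sost+/+ replicate 1, Sost+/+ replicate 3 or Sost-/- replicate 3, where 0 of the 23 passed. Itga3, an integrin subunit gene, had a log2 fold change of 0.96 (SE 0.21, adjusted p = 0.0504), just outside the threshold. The kinase gene Src was at 0.40 (SE 0.15), whereas Ezr, which encodes the ezrin that binds the tail of podoplanin, was at -0.32 (SE 0.08) and the kinase gene Fyn at -0.27 (SE 0.10). The reelin receptor genes Vldlr and Lrp8 had log2 fold changes of -0.10 and -0.31 (edgeR adjusted p = 0.621 and 0.347).

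Markers of other cell types differed in the same libraries, and their part in the results on the 8 genes was not tested. Of 12 smooth muscle markers 10 rose and 0 fell, and their summed level was 1420 to 2797 CPM in the Sost+/+ libraries and 4211 to 6409 CPM in the Sost-/- libraries. Of 15 cardiomyocyte markers 0 rose and 1 fell in edgeR (0 and 10 in DESeq2), with sums of 94580 to 103000 CPM against 63310 to 78950 CPM. These sums did not overlap. Those of 14 blood endothelium markers did, at 1319 to 1578 CPM and 1175 to 1603 CPM, and 0 of the 14 passed in edgeR, DESeq2 or limma-voom, with 2 at an unadjusted p under 0.05. Their median log2 fold change was -0.07. Fibroblast markers summed to 8533 to 9603 CPM against 9294 to 10750 CPM. Of 13 fibroblast markers 0 were called in edgeR and limma-voom, 4 had an unadjusted p under 0.05, and DESeq2 called 3 higher. The fibroblast median log2 fold change was 0.24, with 12 of 13 positive. Over all tested genes, 20.2% had an unadjusted edgeR p under 0.05.

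Macrophage markers summed to 1412 to 1615 CPM in the Sost+/+ and 1324 to 2086 CPM in the Sost-/- libraries, and adipocyte markers to 437 to 819 and 590 to 1343 CPM. Schwann cell and neuron markers summed to 55.2 to 61.9 and 57.5 to 80.5 CPM, so all 3 ranges overlapped. Median log2 fold changes of these 3 lists were 0.26, 1.38 and 0.47, with 7 of 12, 8 of 8 and 7 of 8 tested markers positive. In edgeR and limma-voom 0 of 12 macrophage, 0 of 8 adipocyte and 0 of 8 Schwann cell and neuron markers passed, with 5, 6 and 4 at an unadjusted p under 0.05. DESeq2 called 3, 0 and 2 of them, and 20.2% of all tested genes had an unadjusted edgeR p under 0.05. Of 10 mesothelium and epicardium markers 0 passed in edgeR, limma-voom or DESeq2, with 2 at an unadjusted p under 0.05. Their median log2 fold change was 0.83, and their sum was high only in Sost-/- replicate 3. Markers of lymph node and B cells were low, at 13.4 to 25.0 CPM against 13.8 to 15.5 CPM, with Ccl19 at 0, and those of thymus and T cells were at 13.3 to 40.9 CPM against 8.88 to 17.3 CPM, with Foxn1 at 0. Of 8 and 5 tested markers of these lists 0 passed in edgeR or limma-voom, 1 and 3 had an unadjusted p under 0.05, and DESeq2 called 1 and 0. Their median log2 fold changes were -0.10 and -0.72. In the table, no marker of the other 8 lists was at 0 in every library.

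**Figure D3:**
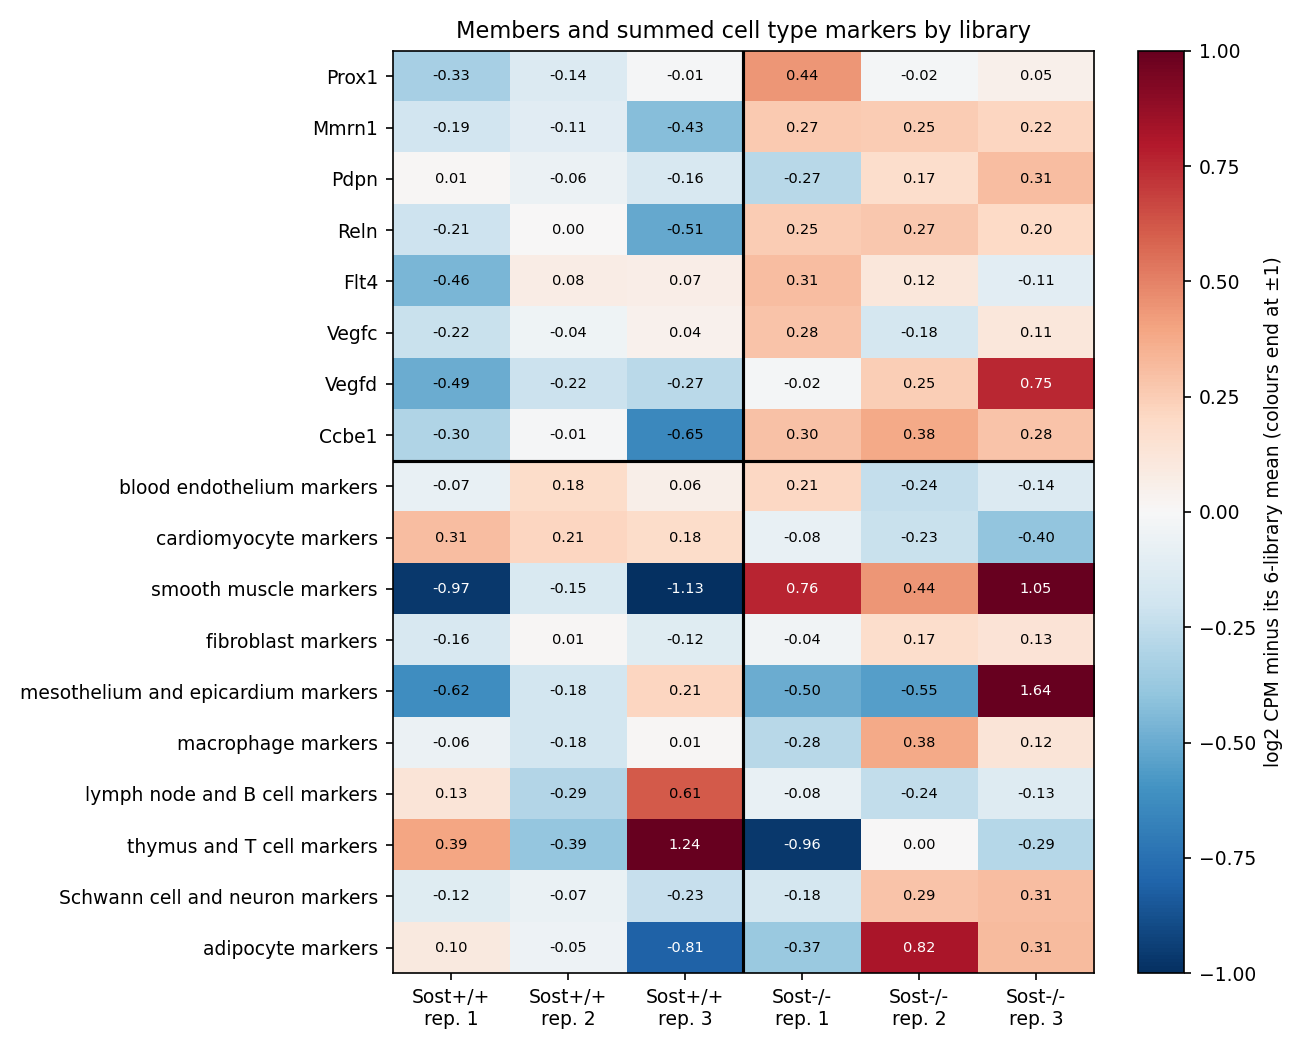
Log2 CPM of the 8 genes (top) and of the summed markers of 10 cell types (bottom) in each library, relative to its mean over the 6 libraries, with colours ending at ±1. Mmrn1, Reln and Ccbe1 run alike across the libraries, and the mesothelium and epicardium sum stands out in Sost-/- replicate 3 at 1.64.

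The genes most like each of the 8 were ranked by Pearson's r of log2 CPM over the 6 libraries, among 13506 genes with a mean of at least 1 CPM. With 6 points that also separate by group, high values are common: 144 genes exceeded 0.95 with Mmrn1 and 76 with Reln. Reln and Ccbe1 were each other's closest gene (r = 0.998). The next for Reln were C1qtnf2 (0.995) and Izumo4 (0.992), and for Ccbe1 Izumo4 (0.996) and the growth factor binding protein gene Igfbp3 (0.994). For Mmrn1 they were Nsg1 (0.992), the lectin gene Cd209g (0.991) and Izumo4 (0.991). Izumo4 was thus named for all 3 genes, and was at 9.98, 12.7 and 7.52 CPM against 18.3, 19.4 and 18.4 CPM.

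Other genes led for the remaining 5. Prox1 was most like Nfat5 (0.993), Rasal2 (0.991) and Ccdc88c (0.990), and Flt4 like Cdr2l (0.994), the vessel wall gene Emilin1 (0.976) and Syt17 (0.972). For Vegfc, the protease gene Adamts8 (0.994) and Rreb1 (0.989) were among the closest genes. For Vegfd they were the complement inhibitor gene Serping1 (0.995), Unk (0.993) and Fam114a1 (0.992), and for Pdpn Thap7 (0.984), Rrnad1 (0.982) and 4833403I15Rik (0.980).

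**Figure D4:**
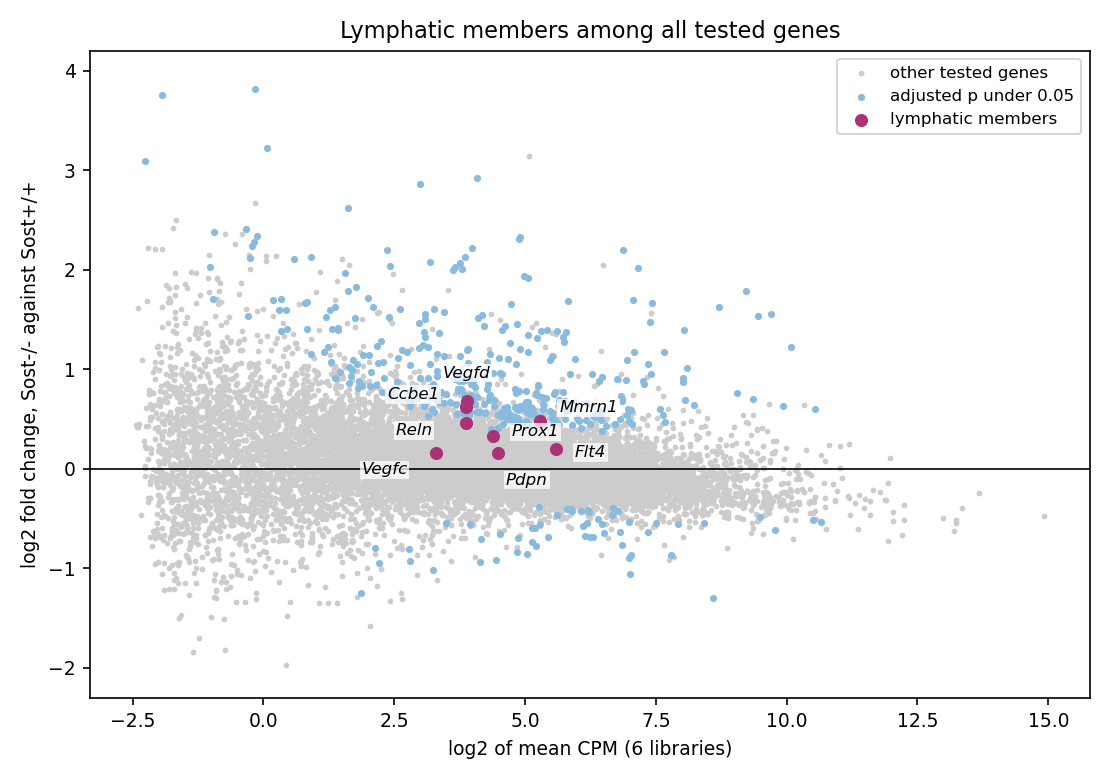
Log2 fold change, Sost-/- against Sost+/+, against log2 of the mean CPM for all 15096 tested genes (grey, or blue where the edgeR adjusted p was under 0.05), with the 8 genes in purple. The 8 genes lie above 0 at 0.15 to 0.69.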

How the data were processed

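Bulk RNA of 6 aortic roots was measured, 3 labelled Sost+/+ and 3 labelled Sost-/-, grouped by the genotype label. Reads per gene symbol were deposited as raw counts. A further deposited table gives a normalized signal, which equals those counts over 1 size factor for each library and was not tested. Tools named are DRAGEN, HTSeq and DESeq2, with build mm10, per the submitters' processing notes. Their versions and the strand setting were not given in the sources used here. Genes were kept with filterByExpr (minimum count 10, minimum total count 15), given TMM factors, and compared by edgeR's quasi-likelihood test (version 4.0.16, R 4.3.3) at a Benjamini-Hochberg adjusted p of 0.05. CPM is counts per TMM-scaled library size. The SE is the absolute log2 fold change over the square root of F. Alternatives were DESeq2 1.42.0, limma-voom (limma 3.58.1), DESeq2 size factors, no filter, and each library left out. Simulated counts over 15096 genes for this comparison gave all genes the same dispersion (spread between libraries beyond counting). Of genes with log2 fold changes of 0.5, 1 and 2, 18.0%, 88.0% and 100% were recovered (90.0% at -1). Of 157 calls, 9 were false. No 2 libraries were alike within sampling noise (chi-square per degree of freedom 33.9 to 171). Genes named are the 8 members, of each pathway list those that passed and the 4 next by p, the 3 genes most like each member (log2 CPM, prior count 2; 1 of them is not reported here), and Sost. Further genes were named after their values were seen (Lyve1, Ccl21a, Adamts3, Vldlr, Lrp8 and the partners in ratios). Members and lists were chosen with earlier results of these data known. Older symbols were matched through RefSeq. Sequences are RefSeq's and were used for 7 of the 8 genes, and that of Ccbe1 is not reported here.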

Additional observations from a re-analysis of the deposited data

How the results depend on the processing

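All 8 lymphatic genes kept a positive log2 fold change under each of the 10 alternatives run. Of the 80 values, 68 kept their side of the threshold, 5 lost the call (all Mmrn1, with 1 library left out) and 7 gained it (Ccbe1, Vegfd and Reln). DESeq2 called 4 of the 8, 8 other lymphatic markers, 1 VEGF pathway gene, 3 podoplanin and reelin partners and 1159 genes in all, against 1, 2, 0, 1 and 385 in edgeR. With no filter on low counts edgeR called 3 of the 8, 4 other lymphatic markers, 2 partners and 567 of 19772 genes in all. With each library left out in turn, the calls ranged from 0 to 2 of the 8, from 0 to 1 other lymphatic markers, from 0 to 2 partners and from 0 to 349 genes in all. The lowest numbers of genes were 0 without Sost+/+ replicate 1 and 10 without Sost-/- replicate 3, where 2262 and 1714 genes had an unadjusted p under 0.05, and the numbers were 118 without Sost+/+ replicate 3 and 218 without Sost-/- replicate 2. These fits compare 2 libraries with 3, and the cause was not tested. DESeq2 size factors and limma-voom gave 368 and 355 genes and 1 of the 8. In the simulated counts, which gave all genes the same dispersion, 18.0% of genes with a log2 fold change of 0.5 were recovered. Of the 8, 6 had a log2 fold change under 0.5, including Mmrn1, which passed. The recovery of each of the 8 at its own spread was not simulated. No paired analysis was possible because the labels give no replicate numbers.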
